A study of Mus musculus with 8 samples.

Results

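Cluster 11 of the authors' annotation, named Polydendrocyte/Oligodendrocyte, held 488 of the 55672 annotated striatal nuclei, or 0.877%. Its members were taken by that name alone. They are described here beside cluster 2, the 12066 nuclei that the authors named Oligodendrocyte. Polydendrocyte is another name for the oligodendrocyte precursor cell, also called the NG2 cell after the proteoglycan that the gene Cspg4 encodes.

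The study profiled nuclear RNA and open chromatin (10x Genomics Multiome) in frozen striatum of 32 mice, all 12 weeks old, of 8 inbred strains. The laboratory strains were A/J, 129S1/SvImJ, C57BL/6, NZO/HlLtJ and NOD/ShiLtJ, and the wild-derived ones were WSB/EiJ, PWK/PhJ and CAST/EiJ. The strain written C57BL/6 appears as a J substrain in the series' text and as an NJ substrain in the deposited table, and NZO/HlLtJ is spelled NZO/H1LtJ in the labels. A batch, of which there were 4, was a pool of nuclei from 8 mice, 1 per strain, so a mouse is identified by its batch and strain, there are 4 mice per strain, and pooled nuclei were assigned to a strain by their genotype.

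Precursors of oligodendrocytes persist in the adult brain, where they divide slowly, receive synaptic contacts from neurons and give rise to myelinating cells. They carry the receptor for platelet-derived growth factor (Pdgfra) and the proteoglycans NG2 (Cspg4) and versican (Vcan). On leaving this state they pass through a short committed stage, known for Gpr17, Bmp4 and Neu4, and a newly formed stage, known for Enpp6 and Tcf7l2, before they make the proteins of compact myelin. Sox5 and Sox6 are known to hold precursors in the immature state, and Sox10 acts at all stages of the lineage.

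Nuclei of cluster 11 had a median of 2813 UMIs (unique molecular identifiers, 1 per RNA molecule counted), against 1640 in cluster 2 and 4329 over all annotated nuclei. Batches 1 to 4 gave 125, 124, 129 and 110 nuclei, with medians of 2973, 3179, 1423 and 4474.5 UMIs, so batch 3 was the shallowest. A mouse contributed 6 to 34 nuclei, with a median of 15. In the open chromatin index, 66.6% of the nuclei of cluster 11 were listed (95% Wilson interval 62.3 to 70.6%), against 77.4% of cluster 2. By batch, 1 to 4, it was 72.0%, 67.7%, 53.5% and 74.5% of cluster 11. Of the 55 nuclei of sub-cluster 3, described below, 2 were listed. The barcodes of 21 of the 488 nuclei also occurred among annotated nuclei of another batch, and 0 occurred in cluster 11 of more than 1 batch. Intervals given here cover counting error alone.

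The starts of 4 genes of the lineage are shown to give the sequences next to which these stage genes lie: Pdgfra for the precursor, Tnr for its large ratio between the clusters, Bmp4 for the committed stage and Enpp6 for the newly formed stage. Each is the stretch of 250 bases upstream of the gene's start in RefSeq (build GRCm38.p6), 5′ to 3′ on the gene's strand. Pdgfra lies on the plus strand at chr5:75152001-75152250, Tnr on the plus strand at chr1:159523519-159523768, Bmp4 on the minus strand at chr14:46390670-46390919 and Enpp6 on the plus strand at chr8:46986637-46986886. Capitals mark the words ACAAAG and ACAATG, the core letters of sites bound by Sox proteins, on either strand (CTTTGT and CATTGT when read in reverse).
Pdgfra: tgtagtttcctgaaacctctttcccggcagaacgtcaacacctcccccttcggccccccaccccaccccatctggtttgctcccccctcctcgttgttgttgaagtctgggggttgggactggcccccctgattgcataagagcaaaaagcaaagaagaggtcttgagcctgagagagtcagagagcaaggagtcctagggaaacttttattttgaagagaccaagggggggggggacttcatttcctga
Tnr: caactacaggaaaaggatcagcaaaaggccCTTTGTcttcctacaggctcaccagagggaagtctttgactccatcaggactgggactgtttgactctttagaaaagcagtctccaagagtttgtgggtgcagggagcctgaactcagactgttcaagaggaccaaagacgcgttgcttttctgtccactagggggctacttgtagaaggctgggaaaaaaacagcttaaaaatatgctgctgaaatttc
Bmp4: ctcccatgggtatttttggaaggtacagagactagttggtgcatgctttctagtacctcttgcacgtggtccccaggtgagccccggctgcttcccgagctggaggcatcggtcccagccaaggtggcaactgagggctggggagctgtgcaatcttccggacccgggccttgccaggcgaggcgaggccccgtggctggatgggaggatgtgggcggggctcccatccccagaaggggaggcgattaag
Enpp6: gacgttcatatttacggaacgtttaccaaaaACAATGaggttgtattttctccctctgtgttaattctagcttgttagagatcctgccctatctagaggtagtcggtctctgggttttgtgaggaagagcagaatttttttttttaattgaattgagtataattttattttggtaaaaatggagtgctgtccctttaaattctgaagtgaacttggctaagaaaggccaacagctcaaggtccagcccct
Tnr and Enpp6 each held 1 such word and Pdgfra and Bmp4 held 0. A word of this kind stood in 25.2% of all 32851 upstream stretches of the same length, in 4 of the 13 matched precursor markers and in 5 of the 15 matched genes of the committed and newly formed stages. All 4 stretches overlapped an accessible region of the deposited index. That index lists 291715 regions found over all nuclei together, with a median width of 999 bases, and does not say in which cells a region is open. Of all stretches 51.7% overlapped one, as did 10 of the 13 precursor markers (76.9%) and 9 of the 15 committed and newly formed stage genes (60.0%). The set of all stretches holds several starts of some genes, while a listed gene was counted once, by its first entry. The shares of words and of overlaps are therefore not like measures, and no difference is read from them.

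The name of the cluster was checked against its markers. Because the authors clustered these nuclei on gene expression, levels in cluster 11 beside cluster 2 are given as a description with no test. Pdgfra had a UMI in 49.2% of the nuclei of cluster 11 and in 0.547% of cluster 2. Cspg4 had one in 44.9% and 1.30%, and Vcan in 80.9% and 0.655%. The much deeper Drd1+ neurons, with a median of 6505 UMIs, gave 0.578% for Pdgfra and 0.461% for Cspg4, while 12.6% of them held Vcan. Bmp4 was found in 20.3% of cluster 11 and 0.0663% of cluster 2. Enpp6 did not set the clusters apart as sharply, at 29.1% of cluster 11 and 21.8% of cluster 2. Mog, a surface protein of mature myelin, went the other way, at 19.9% of cluster 11 and 79.0% of cluster 2.

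Levels were computed as counts per 1e+06 UMIs (CPM), summed over the nuclei of a cluster, and compared mouse by mouse in the 27 mice with at least 10 nuclei of cluster 11. A gene of at least 20 CPM in either cluster was counted as higher when it was at least 2-fold higher in the sum and higher in at least 24 of the 27 mice, and as lower by the same rule reversed. By this count 698 of 8180 genes (8.53%) were higher in cluster 11 and 845 (10.3%) were lower. The median log2 ratio over all genes compared was -0.0042. Genes below 20 CPM in both clusters were not compared.

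Of the 18 precursor markers, 14 were higher in cluster 11 and 0 were lower, with a median log2 ratio of 4.74. Pdgfra ranged from 93.6 to 612 CPM over the 27 mice in cluster 11 (median 283) and from 0 to 9.71 CPM in cluster 2 (median 3.21). Cspg4 ranged from 67.7 to 537 CPM in cluster 11 (median 208) and from 1.74 to 14.5 CPM in cluster 2. The mice did not overlap between the clusters for either gene. Tnr, which encodes tenascin-R of the extracellular matrix, had the largest ratio of all genes of at least 100 CPM when 1 CPM was added to both levels, at 3216 against 9.37 CPM, a log2 ratio of 8.28. With nothing added, Gm13187 (154 against 0.188 CPM) and Gm36988 (197 against 0.329 CPM) had larger ratios. Nxph1, a secreted ligand of neurexins, followed at 1104 against 4.28 CPM, then Sox6 at 1192 against 5.51 CPM and Vcan at 905 against 4.00 CPM. The 4 precursor markers outside this count were Enpp6, Olig1, Sox10 and Matn4. Sox10 stood at 300.1 CPM in cluster 11 and 299.9 CPM in cluster 2, and Olig1 at 98.9 and 79.4 CPM, so these lineage factors were held by both clusters at like levels.

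Genes of the committed and newly formed stages were also high: 12 of 17 compared were higher and 0 lower, with a median log2 ratio of 3.87. Gpr17, a receptor of committed precursors, stood at 266 against 2.35 CPM and Neu4, a sialidase, at 188 against 0.941 CPM. Frmd4a stood at 3565 against 75.0 CPM, and the long non-coding RNA 9630013A20Rik at 1255 against 10.0 CPM. Tcf7l2, a transcription factor of the Wnt pathway, stood at 871 against 59.8 CPM. The label of a precursor therefore covers part of what the cluster held, and the division within it is described further on.

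Most mature oligodendrocyte genes were lower: 24 of 26 were lower in cluster 11 and 0 higher (18 and 0 without the 55 nuclei of sub-cluster 3, described below), with a median log2 ratio of -3.04. Mog stood at 140 against 1140 CPM, and Mal, a protein of myelin membranes, at 87.1 against 1272 CPM. Aspa, which splits N-acetylaspartate, stood at 45.1 against 899 CPM. The ratio was smaller for Mbp, which encodes a protein of compact myelin, at 3636 against 7461 CPM. The exceptions were Gjc3, a gap junction gene, at 581 and 547 CPM, and Cldn14 at 76.8 and 70.5 CPM. Among lipid and cholesterol synthesis genes 9 of 28 were lower, for example Fa2h (186 against 617 CPM) and Scd2 (329 against 1167 CPM).

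Transcription factors of the lineage split. Of 29 compared, 8 were higher (Olig2, Sox4, Sox5, Sox6, Hes5, Tcf7l2, Prrx1 and Etv5) and 4 lower (Nkx6-2, Zfp536, Myrf and St18). Sox5, the partner of Sox6, stood at 436 against 8.71 CPM, and Prrx1 at 62.5 against 1.51 CPM. Myrf, which switches on myelin genes, stood at 76.8 against 158 CPM and St18 at 1333 against 3226 CPM. In the Notch pathway, 4 of 14 genes were higher, among them Notch1 at 52.2 against 6.17 CPM and its target Hes5 at 38.9 against 7.62 CPM, and 2 were lower (Adam10 and Itch).

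Receptors for growth factors and guidance cues were divided, with 10 of 36 higher and 7 lower. Beside Pdgfra, the neurotrophin receptors Ntrk2 (330 against 67.8 CPM) and Ntrk3 (424 against 19.7 CPM), the netrin receptor Dcc (1509 against 372 CPM) and the endothelin receptor Ednrb (130 against 10.2 CPM) were higher. Lower were Fgfr2 (439 against 998 CPM), Erbb3 (51.2 against 112 CPM), Kit (7.68 against 46.6 CPM), Gpr37, Lpar1, S1pr5 and Tgfbr2. Proteoglycans and matrix genes were largely higher, 16 of 23, including brevican (Bcan, 331 against 28.4 CPM) and the glypicans Gpc5 (1409 against 23.1 CPM) and Gpc6 (349 against 6.5 CPM). Hapln2, a link protein known from nodes of Ranvier, was the single lower member, at 9.22 against 246 CPM.

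Of 51 genes of synaptic receptors and ion channels, 30 were higher and 2 lower. Gria2, a subunit of AMPA-type glutamate receptors, stood at 1762 against 116 CPM, and Gria4 at 620 against 214 CPM. Cacng4, an auxiliary subunit of these receptors, stood at 295 against 14.8 CPM. Kcnd2, an A-type potassium channel, stood at 2879 against 69.5 CPM. Those lower were Grm3, a metabotropic glutamate receptor, at 213 against 1285 CPM, and Grik1, a kainate receptor subunit, at 103 against 296 CPM. Of 41 adhesion genes 27 were higher and 3 lower, for example Lrrtm4 at 2020 against 26.4 CPM and Csmd1 at 3656 against 38.7 CPM, with Ptprd lower at 2140 against 5260 CPM. Sub-cluster 3, described below, held 55 of the 488 nuclei but 618528 of the 1952372 UMIs of cluster 11, which weights these summed levels. There the synaptic list summed to 35339 CPM, against 7942 to 19168 CPM in the other sub-clusters. The adhesion list summed to 68863.5 CPM, against 52813 to 76709.5 CPM in the others. Levels of these single genes without sub-cluster 3 are not given. Many of these genes are also known from neurons, so the neuronal signal in the cluster is given next.

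Of 17 projection neuron genes, 6 (Pde10a, Meis2, Rarb, Syt1, Rbfox1 and Meg3) were higher in cluster 11. Their list summed to 7727 CPM in cluster 11, 1418 CPM in cluster 2 and 23335 CPM in Drd1+ neurons. Syt1, a synaptic vesicle protein, stood at 710, 77.1 and 2454 CPM in the same order. The receptors Drd1 and Drd2 stood at 37.9 and 33.8 CPM in cluster 11. Without the 55 nuclei of sub-cluster 3, 1 of 16 projection neuron genes was higher, and precursor markers counted 15 of 18, synaptic receptors and channels 25 of 44 and adhesion genes 24 of 40. Lower counts then fell to 4 of 35 receptors and 6 of 28 lipid and cholesterol synthesis genes, and transcription factors counted 6 higher and 2 lower of 30. Over all genes the counts were then 533 higher (6.61%) and 567 lower (7.04%) of 8059. Astrocyte genes had 0 of 9 higher, and their list summed to 1107 CPM against 14799 CPM in astrocytes. Microglial genes summed to 162 CPM and those of vessels to 63.5 CPM.

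Cell cycle genes were scarce. Only 3 of the 30 listed reached 20 CPM in either cluster, and 0 were higher. Mki67, a marker of dividing cells, had 13 UMIs in all of cluster 11 and Top2a had 1.

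Clustering the 488 nuclei on their own gave 6 sub-clusters, of which 3 could be named by stage. The numbered groups are given as a description, since the genes that define them also formed them. Sub-cluster 1, with 236 nuclei, was precursor-like by the listed markers: Pdgfra stood at 814 CPM, with a UMI in 69.9% of nuclei, Cspg4 at 561 CPM and C1ql1, a secreted complement-like protein, at 292 CPM, while Mog stood at 6.78 CPM. Sub-cluster 4, with 49 nuclei, was like committed precursors, with Bmp4 at 625 CPM, Gpr17 at 1147 CPM and Neu4 at 595 CPM and Pdgfra at 12.1 CPM. Sub-cluster 2, with 81 nuclei, was like newly formed oligodendrocytes, with Enpp6 at 1403 CPM, Frmd4a at 14946 CPM, Tcf7l2 at 3246 CPM and Pdgfra at 2.62 CPM. Tnr was shared by these stages, at 3355, 7546 and 6320 CPM in sub-clusters 1, 4 and 2. A UMI of Bmp4 was found in 6.36% of the nuclei of sub-cluster 1, in 77.6% of sub-cluster 4 and in 40.7% of sub-cluster 2.

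The other 3 sub-clusters were left unnamed. Sub-cluster 5, with 36 nuclei, combined 9630013A20Rik at 4863 CPM with genes of mature myelin, Mag at 1886 CPM and Cldn14 at 647 CPM, and held Vcan at 20.2 CPM and Pdgfra at 15.2 CPM. Sub-cluster 6, with 31 nuclei, combined Pdgfra at 571 CPM with mature genes, Mal at 633 CPM, Prr5l at 667 CPM and Aspa at 462 CPM. Pdgfra had a UMI in 87.1% of its nuclei. Sub-cluster 3, with 55 nuclei, combined precursor genes with neuronal ones: Pdgfra had a UMI in 80.0% of nuclei and Vcan in 98.2%, and Rbfox1 stood at 6941 CPM, Pde10a at 2527 CPM and Syt1 at 2069 CPM. Its median was 9695 UMIs, against 1706.5 in sub-cluster 1, and 3.64% of its nuclei were in the open chromatin index (1.00 to 12.3%), against 65.7% to 97.2% in the other 5. Whether these nuclei are doublets was not tested. All 6 sub-clusters drew nuclei from all 4 batches. Sub-cluster 4 held 0 of the 50 nuclei of CAST/EiJ, and sub-cluster 2 held 19 of the 53 nuclei of C57BL/6 and 3 of the 51 of WSB/EiJ. These counts over 4 mice were not tested.

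**Figure D1:**
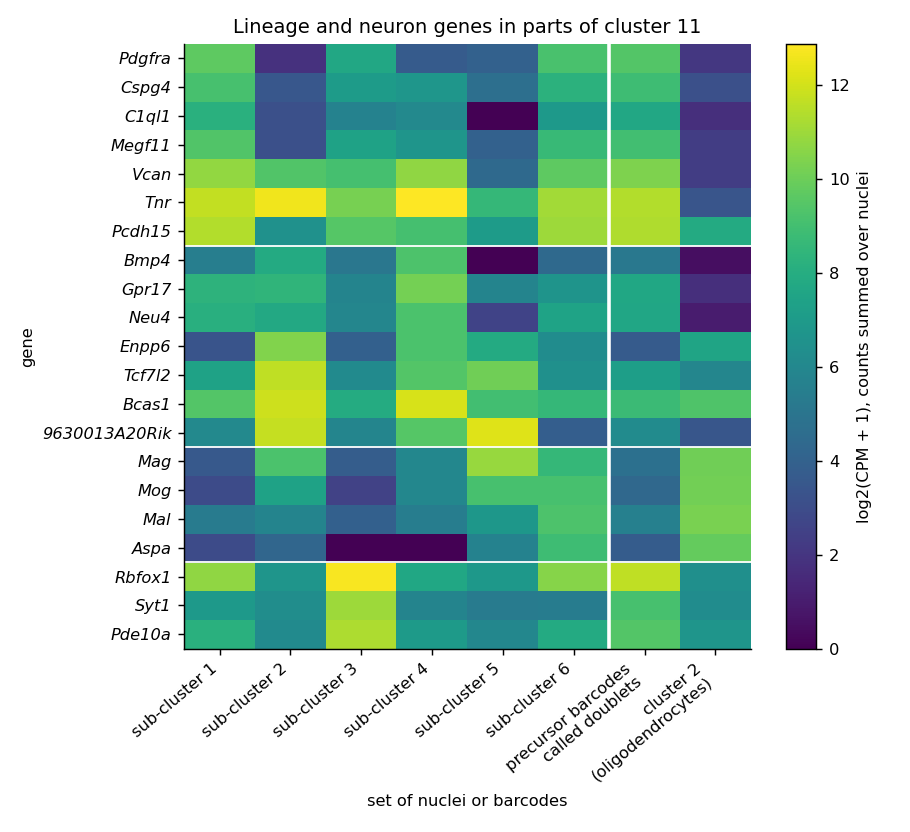
Level of 21 genes, as log2 of CPM plus 1, in the 6 sub-clusters of cluster 11, in precursor barcodes that the authors' pipeline called doublets, and in cluster 2. Pdgfra and Cspg4, which helped to choose the barcodes called doublets, are high in sub-clusters 1, 3 and 6, Bmp4 and Gpr17 peak in sub-cluster 4 and Enpp6 in sub-cluster 2, while neuronal Syt1 is highest in sub-cluster 3.

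Genes of precursors were also found in barcodes that the authors did not keep. The barcodes of the matrices were searched for 7 genes (Pdgfra, Cspg4, Megf11, C1ql1, Neu4, Gpr17 and Bmp4), and barcodes with a UMI of at least 3 of them are called precursor barcodes. The 7 genes were chosen after the data were seen, to find precursor barcodes among those called doublets. Of 65394 barcodes that passed the authors' quality filter as singlets of 1 strain, 1482 were precursor barcodes. The authors' DoubletFinder step called 1190 of these doublets, or 80.3% (78.2 to 82.2%). Cluster 11 kept 281, and 11 had other fates. In cluster 2, 0 of 12066 nuclei met the rule, which allows a share of up to 0.0249% (3 counts of the total), and 2 of 15395 Drd1+ neurons did.

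The share called doublets was high in each batch: 82.6%, 79.5%, 79.8% and 79.0% in batches 1 to 4. Over all quality-passed barcodes it was 10.3%. Barcodes with at least 3 listed genes of another cell type gave 8.56% for mature oligodendrocyte genes, 12.9% for astrocyte, 8.41% for microglial and 12.4% for projection neuron genes. These sets are not the cell types themselves. The astrocyte genes picked 12908 barcodes, where 4748 nuclei were annotated as astrocytes, and the projection neuron genes picked 47749 of all 65394. By batch, the highest share among these other gene sets was that of the astrocyte genes in batch 3, at 32.0%. The rules differ in how strictly they pick a cell type, so doublet shares of the cell types are not compared.

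The precursor barcodes called doublets were shallower than other doublets. Their median was 3020 UMIs, against 7695 UMIs in the other barcodes called doublets and 2570 UMIs in the precursor barcodes of cluster 11. In the open chromatin index 83.3% of them were listed (81.1 to 85.3%), against 78.1% of the other doublets. In batch 2 the order was reversed, at 76.1% against 86.7%. Projection neuron genes summed to 7235 CPM in the precursor barcodes called doublets, against 3663 CPM in sub-cluster 1, 10093 CPM in the precursor barcodes of cluster 11 and 23335 CPM in Drd1+ neurons. Within cluster 11 this list was highest in sub-cluster 3, at 19934 CPM, with 1008 CPM in sub-cluster 2 and 1269 CPM in sub-cluster 4. The part of sub-cluster 3 in the 10093 CPM was not tested. Mature oligodendrocyte genes summed to 3431 CPM, below the 4384 CPM of sub-cluster 1. How many of these barcodes hold 1 nucleus was not tested.

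Requiring more of the 7 genes raised the share called doublets, from 72.5% with at least 2 genes to 83.2% with 4 and 84.1% with 5. After each barcode was thinned to 2000 UMIs, 842 of 960 precursor barcodes were doublet calls (87.7%), against 13.2% of the 50118 barcodes left, and 15276 shallower ones were left out. By another rule, a UMI of both Enpp6 and 9630013A20Rik of the newly formed stage, 59 barcodes were called doublets (24.2%) and 185 kept, 123 of them in cluster 11. This share is also above the 10.3% of all barcodes, and since the rules differ the stages are not compared.

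**Figure D2:**
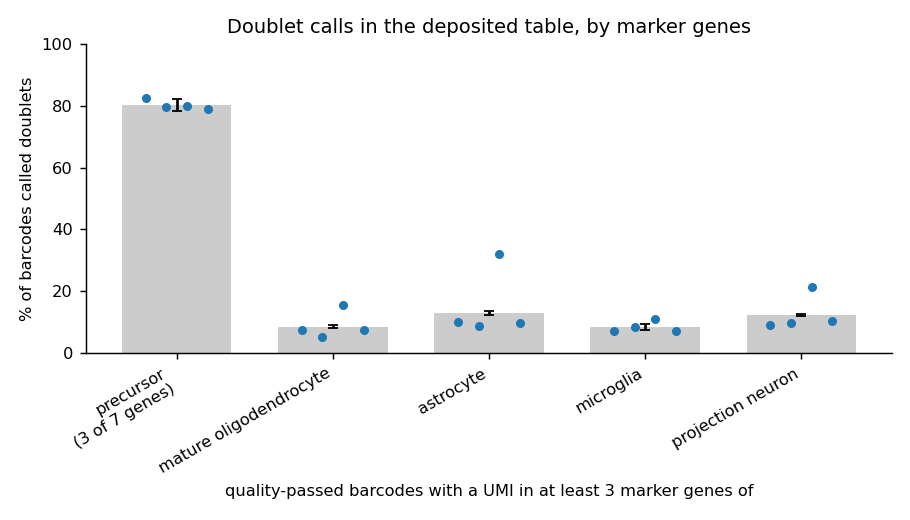
Percent of quality-passed barcodes called doublets by the authors' pipeline, for barcodes with at least 3 listed genes of each cell type. Bars give all batches with 95% Wilson intervals and points the 4 batches. Precursor barcodes, whose genes were chosen after the data were seen, stand at 80.3%, and the sets picked by genes of other cell types between 8.41% and 12.9%. These sets are not the cell types themselves.

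Shares of cluster 11 were compared between strains over mice. Over the 32 mice the cluster made up 0.342% to 1.51% of annotated nuclei, with a median of 0.807%. By strain the mean was highest in NOD/ShiLtJ, at 1.11% ± 0.165 (SD, n = 4), and lowest in A/J, at 0.778% ± 0.145. The strains did not differ beyond the spread of their mice (p = 0.816, two-sided permutation test with strain labels permuted within batch, 100000 resamples). As a share of clusters 11 and 2 together, cluster 11 ranged from 1.77% to 10.1% over mice. The highest mean was that of PWK/PhJ, at 5.27% ± 3.48, with its mice from 2.26% to 10.1%, and the strains again did not differ beyond the spread (permutation p = 0.559, adjusted over the 3 measures of shares and depth 0.816). The median UMIs per nucleus of cluster 11 did differ by strain when strains were compared within batches (permutation p = 0.00089, adjusted 0.00267). The highest mean was that of C57BL/6, at 4276 ± 2201 UMIs (n = 4 mice), and the lowest that of WSB/EiJ, at 2013 ± 576 (n = 3). These means are not adjusted for batch, and a strain with 3 mice lacks 1 batch, batch 1 for WSB/EiJ. The sub-clusters described above differed in depth, with a median of 1706.5 UMIs in sub-cluster 1 and 4792 in sub-cluster 2. Sub-cluster 1 held 14 of the 53 nuclei of C57BL/6 and 30 of the 51 of WSB/EiJ, and sub-cluster 2 held 19 and 3, and their part in the difference was not tested. This difference did not pass without batch 2 (adjusted permutation p = 0.0720), without batch 4 (0.239) or without the block for batch (0.816).

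When the precursor barcodes called doublets were counted with those of cluster 11, as a share of quality-passed barcodes, the strains differed (permutation p = 0.00735, adjusted 0.0110). This measure was added after the data were seen, and was adjusted in place of the planned share of cluster 11. In NOD/ShiLtJ the 4 mice stood at 2.58%, 2.93%, 3.19% and 3.19% (mean 2.97% ± 0.290). In NZO/HlLtJ they stood at 2.41%, 2.46%, 2.47% and 2.63%, and in 129S1/SvImJ at 2.33%, 2.60%, 2.74% and 2.84%. These 3 strains had the highest means. In A/J they stood at 1.28%, 1.82%, 1.99% and 2.18% (mean 1.82% ± 0.386), and every mouse of A/J lay below every mouse of those strains. Without batch 4 the difference did not pass (permutation p = 0.0526), and without batches 1, 2 or 3 the p was 0.0192, 0.0379 and 0.0212. With barcodes thinned to 2000 UMIs the permutation p was 0.0186, with NOD/ShiLtJ at 2.51% ± 0.344 and A/J at 1.52% ± 0.341. The percent of precursor barcodes called doublets itself did not differ by strain beyond the spread of mice (permutation p = 0.713), with strain means from 77.5% in CAST/EiJ to 85.3% in 129S1/SvImJ. In nuclei, a share counts nuclei of a type relative to all others recovered, so more precursors and fewer other nuclei cannot be told apart.

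**Figure D3:**
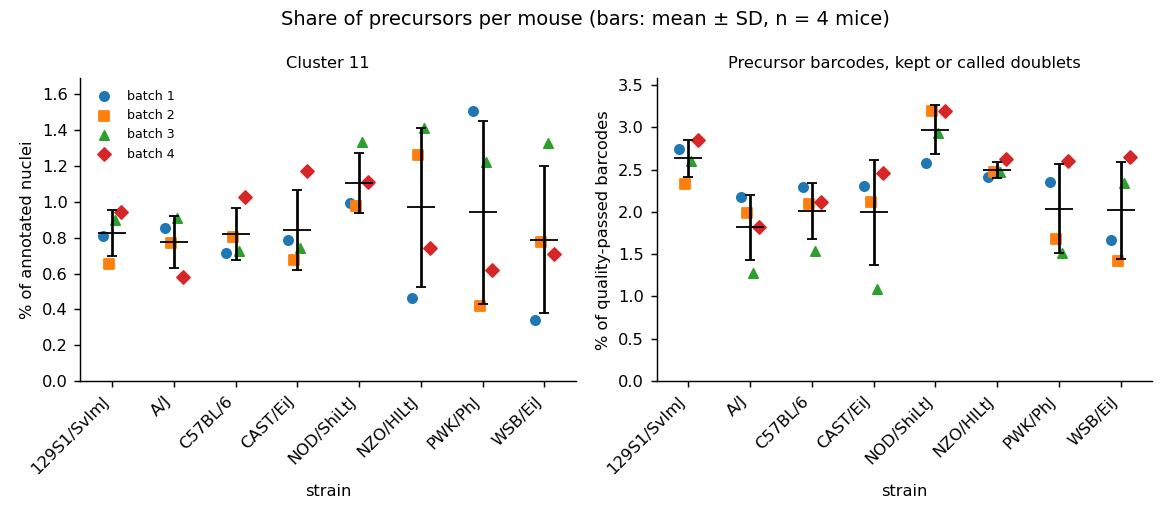
Share of nuclei per mouse by strain, in percent: cluster 11 among annotated nuclei, and precursor barcodes kept in cluster 11 or called doublets among quality-passed barcodes; points are mice and lines strain means. The means of the first lie between 0.778% and 1.11%, and those of the second between 1.82% in A/J and 2.97% in NOD/ShiLtJ.

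To ask whether genetic background changed expression in these cells, the counts of each mouse in cluster 11 were summed and the strain term was tested over the 27 mice with at least 10 nuclei, with batch as a block. The summed libraries held 20750 to 169474 counts, with a median of 59127. Of 2099 genes tested, 26 differed between strains at an adjusted p under 0.05 (1.24%), and 251 had an unadjusted p under 0.05. The number rested on single batches: it was 11, 9, 58 and 6 without batches 1, 2, 3 and 4. Among the 25 genes named below, 8, 8, 21 and 5 passed in these 4 fits, and only Cwc22 and AC149090.1 passed in each. Of the 25 genes named, 4 did not pass without the block for batch: Plcb1 and Kcnip1 (adjusted p = 0.115 each), Reln (0.147) and Cemip2 (0.0774). With mice of at least 5 nuclei, 16 of 23 still tested passed, and Reln (0.0598), Egfem1 (0.0837), Lrfn5 (0.0906), Plcb1 (0.126), Pde1c (0.146), Lingo2 (0.171) and Hdac9 (0.287) did not. Counted over the 4 mice of a strain, sub-cluster 1 held 43 of the 63 nuclei of PWK/PhJ and 31 of the 50 of CAST/EiJ. It held 14 of the 53 of C57BL/6, and sub-cluster 4 held 9 of the 51 of WSB/EiJ. These counts were not tested over mice, and 1 mouse gave 24 of the 43 nuclei of PWK/PhJ. The part of this makeup in the strain differences below was not tested, apart from leaving out sub-cluster 3. Each adjusted p of the strain term is from 1 joint test over the 8 strains, and no single strain or pair of strains was tested. Levels below are CPM on the scaled library totals. The values in oligodendrocytes come from cluster 2 of the same 27 mice.

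Among the listed groups, the strain term called Itpr2 of 14 committed and newly formed stage genes and Kcnip1 of 35 synaptic receptors and channels. It called 0 of 17 precursor markers, 0 of 15 mature genes, 0 of 15 transcription factors, 0 of 20 receptors, 0 of 14 matrix genes and 0 of 37 adhesion genes. With 1.24% of all genes called, less than 1 call is what lists of these sizes would hold at that share, so the zeros are not read as results about the lists.

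Itpr2, an inositol trisphosphate receptor that releases calcium from the endoplasmic reticulum and marks newly formed oligodendrocytes, stood at 568, 867, 1316 and 1730 CPM in the 4 mice of C57BL/6. It stood at 178, 207 and 214 CPM in the 3 mice of CAST/EiJ and between 185 and 461 CPM in A/J. The mice of C57BL/6 and CAST/EiJ did not overlap. The joint strain term gave an adjusted p of 0.00468 (edgeR), and it did not pass without batch 1 (0.106) or batch 4 (0.0853). Itpr2 was highest in sub-clusters 4, 5 and 2 (1257, 1046 and 987 CPM, against 554 in sub-cluster 1). Nuclei of C57BL/6 were also the most frequent in sub-cluster 2 and those of CAST/EiJ absent from sub-cluster 4, and their part in this difference was not tested. In oligodendrocytes the gene was low in every strain, with means of 9.63 to 76.6 CPM, and the order of strains was another one, with CAST/EiJ highest.

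Kcnip1, an accessory subunit of A-type potassium channels, stood at 183, 444 and 540 CPM in PWK/PhJ, and its mean was 54.1 to 151 CPM in the other 7 strains (adjusted p = 0.0359). Without batch 1, 2 or 4 it did not pass (strain term, adjusted p = 0.155, 0.202 and 0.661). It was highest in sub-cluster 1, at 244 CPM, and had means of 0.740 to 3.38 CPM in oligodendrocytes. With the barcodes called doublets, the 4 PWK/PhJ mice stood at 296, 329, 331 and 331 CPM, above all mice of the other strains, whose highest was 274 CPM.

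Several genes were set apart by 1 strain. Cwc22, a splicing factor, stood at 1459, 1521 and 1838 CPM in WSB/EiJ, and between 0 and 114 CPM in the other 24 mice (adjusted p = 2.95e-13). Oligodendrocytes of WSB/EiJ held it at 1281, 1312 and 1333 CPM, so the difference is shared by both clusters. B530045E10Rik stood at 296, 414 and 520 CPM in CAST/EiJ, and at 0 in all other mice except for 1 of 129S1/SvImJ at 16.3 CPM (adjusted p = 0.00384). Catspere2 stood at 458, 513 and 565 CPM in PWK/PhJ, and at most at 330.3 CPM elsewhere (adjusted p = 0.00278). Hdac9, a histone deacetylase, stood at 437, 567 and 727 CPM in PWK/PhJ, and at most at 347 CPM elsewhere (adjusted p = 0.0398). With batch 1, 2, 3 or 4 left out, Hdac9 did not pass (strain term, adjusted p = 0.204, 0.202, 0.122 and 0.508). Cwc22, B530045E10Rik, Catspere2 and Hdac9 were the 4 of the 25 genes named with 1 strain apart from all other mice in cluster 11. The 25 were picked by the strain term in these same mice. Such genes were not counted among all 2099 tested, so their number is not read as a result. In oligodendrocytes the same strain was above all other mice for each of the 4. There B530045E10Rik stood at 529.7 to 1523 CPM in CAST/EiJ, Catspere2 at 250.2 to 291 CPM in PWK/PhJ against at most 89.1 CPM, and Hdac9 at 189 to 232 CPM in PWK/PhJ against at most 188 CPM. Hdac9 did not pass when the barcodes called doublets were added (adjusted p = 0.426), where PWK/PhJ stood at 138 to 377 CPM and overlapped the other strains.

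**Figure D4:**
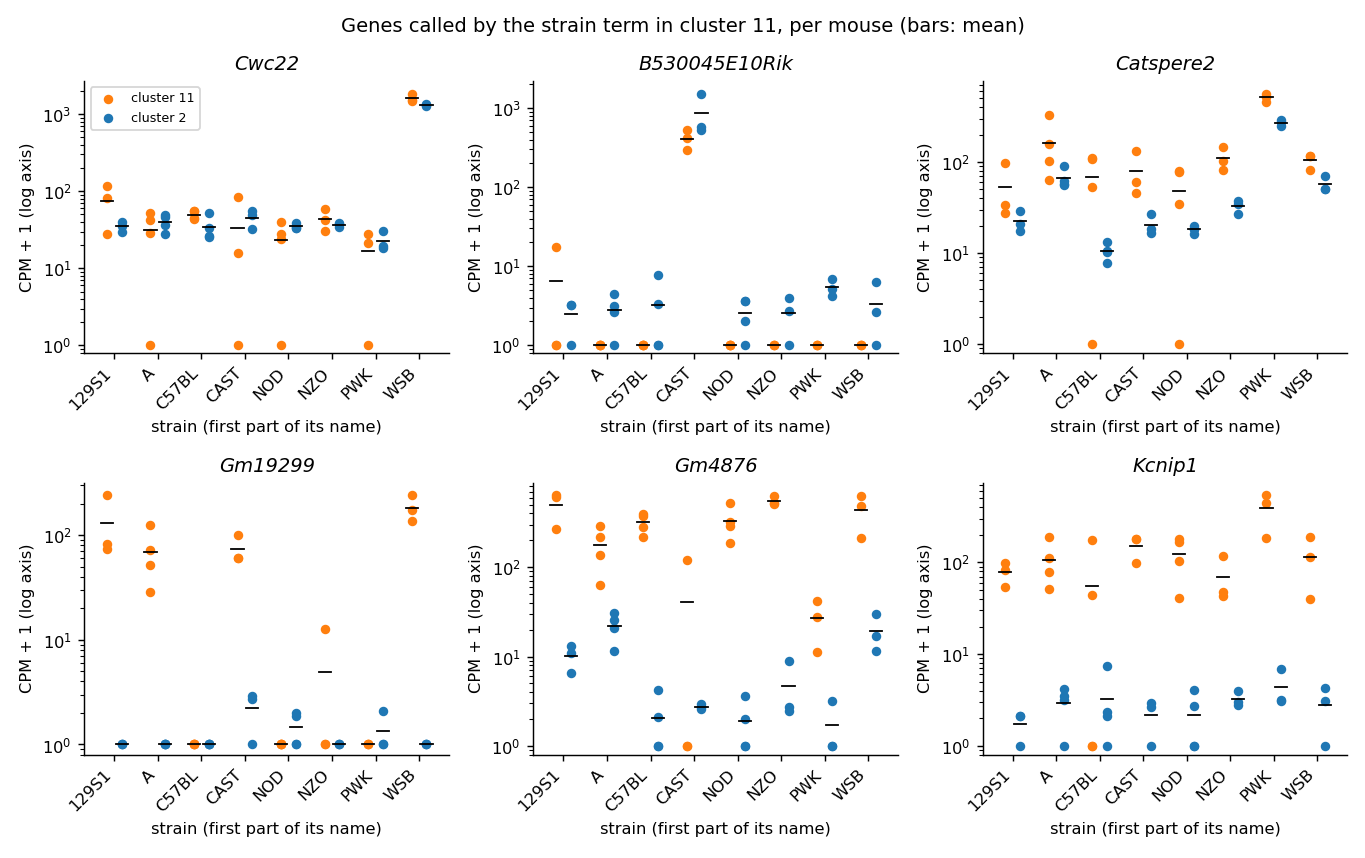
Level of 6 genes in each mouse by strain, as CPM plus 1 on a log axis, in cluster 11 and in cluster 2. Cwc22 is high in WSB/EiJ and B530045E10Rik in CAST/EiJ in both clusters, while Gm19299 and Kcnip1 are near 0 in cluster 2 and vary between strains in cluster 11. Gm4876 is lower in cluster 2 (7.53 against 278 CPM over all nuclei) and varies between strains in both.

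Other genes followed more than 1 strain. AC149090.1 stood at 1397, 1419 and 2288 CPM in CAST/EiJ and at 888, 1139 and 1485 CPM in PWK/PhJ, and between 31.3 and 96.3 CPM in the 4 mice of A/J (adjusted p = 7.18e-11). Gm4876 was low in CAST/EiJ (0, 0 and 119 CPM) and PWK/PhJ (10.2, 27 and 40.4 CPM), and had means of 176 to 554 CPM in the other 6 strains (adjusted p = 0.00261). In oligodendrocytes Gm4876 had means of 0.719 to 21.1 CPM, and AC149090.1 was highest in CAST/EiJ and PWK/PhJ there too, at 678 and 535 CPM. Gm19299 was 0 in every mouse of C57BL/6, NOD/ShiLtJ and PWK/PhJ, and stood at 135, 172 and 240 CPM in WSB/EiJ (adjusted p = 0.00468). Ltbp1, which binds latent TGF-beta, stood at 107, 135 and 458 CPM in WSB/EiJ and at 82.4, 120, 198 and 217 CPM in C57BL/6, against 0, 0 and 10.2 CPM in PWK/PhJ (adjusted p = 0.0312). Its means in oligodendrocytes were at most 2.41 CPM. Zfp949, a zinc finger gene, had its highest means in NZO/HlLtJ (218 ± 109 CPM) and WSB/EiJ (150 ± 78.2 CPM), and the same strains led in oligodendrocytes (160 and 185 CPM). 6030407O03Rik had its highest means in PWK/PhJ (180 ± 31.1 CPM) and WSB/EiJ (136 ± 51.4 CPM) and its lowest in CAST/EiJ (5.48 ± 9.49 CPM).

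Zdhhc14, a palmitoyltransferase, stood at 80.7, 108 and 275 CPM in PWK/PhJ and at 207, 238 and 247 CPM in CAST/EiJ, against 716, 881 and 1058 CPM in WSB/EiJ (adjusted p = 0.00384). Plcb1, a phospholipase C, stood at 569, 605 and 756 CPM in PWK/PhJ, and had means of 1271 to 2382 CPM in the other strains (adjusted p = 0.0398). PWK/PhJ was the lowest strain for both. Zdhhc14 was lowest in sub-cluster 1 (280 CPM) and highest in sub-cluster 4 (1287 CPM), while Plcb1 was lowest in sub-cluster 6 (775 CPM), with 1024 CPM in sub-cluster 2, 1092 CPM in sub-cluster 1 and 2714 CPM in sub-cluster 4. Magi1, a scaffold protein, had its highest mean in NZO/HlLtJ (635 ± 170 CPM) and its lowest in WSB/EiJ (162 ± 103 CPM). Arhgef10, a guanine nucleotide exchange factor, was lowest in PWK/PhJ (23.7 ± 41.1 CPM) and highest in NOD/ShiLtJ (288 ± 84.6 CPM). It stood at 43.0 CPM in sub-cluster 1 against 325 CPM in sub-cluster 2 and 379 CPM in sub-cluster 5, which held 7 and 2 of the nuclei of PWK/PhJ. Pde1c, a phosphodiesterase, ran from 46.7 ± 30.2 CPM in 129S1/SvImJ to 350.4 ± 283 CPM in NZO/HlLtJ. Ralyl had its lowest mean in CAST/EiJ, 139 ± 35.9 CPM, and its highest in PWK/PhJ, 806 ± 46.4 CPM, and these strains were the lowest and highest in oligodendrocytes too (76.5 and 515 CPM).

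Some of the genes called were concentrated in a sub-cluster, and the counts of nuclei per sub-cluster, not tested over mice, were unequal between strains. Lrfn5, Egfem1 and Reln were higher in sub-cluster 3, the one with neuronal genes, than in the other 5 (1010, 498 and 328 CPM), and higher still in Drd1+ neurons (1180, 697 and 543 CPM). Lingo2 was high in sub-clusters 3 and 5 (1504 and 1385 CPM) and in Drd1+ neurons (2493 CPM). A strain had 2 (NOD/ShiLtJ) to 12 (NZO/HlLtJ) nuclei in sub-cluster 3, and its part in the differences was tested only by leaving it out. Without sub-cluster 3, in the same 27 mice, the adjusted p was 0.0113 for Lrfn5, 0.0477 for Egfem1 and 0.0769 for Lingo2, and Reln did not pass the filter on low counts. Uvrag, of the autophagy machinery, and Mitf, a transcription factor, were highest in sub-cluster 2 (788 and 696 CPM), and the part of that sub-cluster in their differences was not tested. Cemip2, a hyaluronidase, was highest in sub-cluster 5 (849 CPM), and ran from 5.43 CPM in 129S1/SvImJ to 467 ± 475 CPM in C57BL/6. Without sub-cluster 3 the strain term called 65 of 1441 genes in the same 27 mice (4.51%), and 17 of the 18 named genes still tested passed, the exception being Lingo2. When mice left with under 10 nuclei were also dropped, which left 23 mice, it called 36 of 1629 genes (2.21%). There 14 of 19 named genes passed, and Cemip2 (adjusted p = 0.0530), Hdac9 (0.0830), Egfem1 (0.104), Arhgef10 (0.114) and Magi1 (0.127) did not.

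With the 1190 precursor barcodes called doublets added, all 32 mice had at least 10 nuclei, and the strain term called 348 of 5536 genes (6.29%). In the same 27 mice as before it called 356 of 5765 (6.18%). The median library rose from 59127 to 190398 counts, and the parts of depth and of the kind of barcode in these numbers were not tested. The number was 195, 234, 465 and 159 without batches 1 to 4. Of the 25 named genes 21 still passed over the 32 mice, and Lingo2, Reln, Pde1c and Hdac9 did not. In the 27 mice Cemip2 did not pass either (adjusted p = 0.111). The part of other cell types in these counts was not tested. Rbfox1 was the 1 of 15 projection neuron genes called, with means of 1958 CPM in C57BL/6 to 3869 CPM in 129S1/SvImJ.

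In this larger set Vcan and Pcdh15 differed by strain among the precursor markers. Pcdh15, a protocadherin, stood at 911, 953, 1209 and 1261 CPM in WSB/EiJ, and at 2692, 2750, 2767 and 3074 CPM in NZO/HlLtJ (adjusted p = 1.77e-07). The mice of these strains were far apart. Vcan had the opposite order, at 1456 to 1837 CPM in the mice of WSB/EiJ (mean 1599 ± 180), and at 793 to 1059 CPM in those of NZO/HlLtJ (mean 934 ± 127; adjusted p = 0.000103). PWK/PhJ was also high for Vcan, at 1538 ± 172 CPM. Pdgfra, Cspg4, Megf11, C1ql1 and Bmp4 are among the genes that chose the added barcodes, as are Gpr17 and Neu4, so their strain differences in this set are not read and no share is given for the lists that hold them.

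The matrix genes called were Vcan, Bcan, Gpc5 and Gpc6. Brevican (Bcan) had its highest mean in PWK/PhJ, at 512 ± 80.3 CPM, and its lowest in C57BL/6 and CAST/EiJ, at 279 CPM each (adjusted p = 0.00338). Gpc6 ran from 399.6 ± 101 CPM in 129S1/SvImJ to 736 ± 190 CPM in WSB/EiJ. The receptors called were Robo1 and Unc5c, and of 25 transcription factors Sox8 was called (4%, below the 6.29% of all genes). Robo1, the receptor for Slit, stood at 1361 ± 291 CPM in NZO/HlLtJ and 531 ± 241 CPM in CAST/EiJ (adjusted p = 1.48e-05). Sox8 had its lowest mean in PWK/PhJ, at 60.8 ± 12.7 CPM (adjusted p = 0.0392).

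Of 50 synaptic receptors and channels, 9 were called (18%, beside 6.29% of all genes tested): Grik1, Grin3a, Grm3, Gabrb1, Gabrg3, Kcnd3, Kcnip1, Kcnq3 and Cacna1a. In cluster 11 alone 1 of 35 was called. The list summed to 23167 CPM in the precursor barcodes called doublets and 24876 CPM in those of cluster 11. It summed to 19168 CPM in sub-cluster 1 and 37161 CPM in Drd1+ neurons, and the part of neuronal RNA in these calls was not tested. Grik1, a kainate receptor subunit, stood at 299, 365, 468 and 502 CPM in PWK/PhJ, above all mice of the other strains, which had means of 109 to 252 CPM (adjusted p = 7.15e-08). Gabrg3, a subunit of GABA-A receptors, stood at 249 ± 87.3 CPM in CAST/EiJ and 287 ± 38.8 CPM in PWK/PhJ, against 745 ± 245 CPM in NZO/HlLtJ (adjusted p = 1.81e-06). Gabrb1, another subunit, went the other way in CAST/EiJ, where it was highest at 679 ± 182 CPM, against 227 ± 109 CPM in WSB/EiJ (adjusted p = 1.29e-05). Grin3a, of NMDA receptors, was lowest in CAST/EiJ, at 230 ± 18.2 CPM, against means of 335 to 443 CPM elsewhere. Adhesion genes called included Nrxn3, Ncam2 and Pcdh15, and of 12 Notch genes 0 were called. Among committed and newly formed stage genes, Lims2 joined Itpr2, with its lowest mean in CAST/EiJ, at 14.2 CPM (4.08 to 28.9 over mice) against 43.4 to 59.8 CPM elsewhere (adjusted p = 0.0281).

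Strain differences in cluster 11 were then compared with those of oligodendrocytes in the same 27 mice. At full depth, with 165465 to 1883033 counts per mouse, 2934 of 9295 genes (31.6%) differed by strain in cluster 2. Thinned to the depth of cluster 11, cluster 2 still gave 432 of 1852 genes (23.3%; 592 at an unadjusted p under 0.05), and 4 further draws gave 400 to 425. Of 1976 genes tested in cluster 11 and full-depth cluster 2, 21 were called in the first and 945 in the second, and 17 in both. That is 81.0% of the calls of cluster 11, to be read beside the 945 of all 1976 genes called in cluster 2, and 1.80% of the calls of cluster 2. With thinned cluster 2, 9 of 11 calls of cluster 11 were shared, beside 294 of all 1329 genes tested in both. The thinned libraries of cluster 2 still came from more nuclei per mouse, 133 to 1011 against 10 to 34, and the part of this in the counts was not tested.

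The difference between the clusters was tested by the interaction of strain and cluster in a fit with the mouse as a block, which called 101 of 2099 genes (4.81%; 308 at an unadjusted p under 0.05). Without batches 1 to 4 the number was 58, 66, 135 and 47, and without sub-cluster 3, in 23 mice, it was 92 of 1629 (5.65%). The 10 genes with the largest F statistic were March1, Cdh2, Cntn3, Itpr2, Pde4d, Dpyd, Pcdh15, Gria4, Dscam and Fhit. They were called in each alternative that tested them. For all 10 the ratio of the highest to the lowest strain mean was larger in oligodendrocytes, at 6.54 (Fhit) to 141 (Cntn3), than in cluster 11, at 1.33 (Dscam) to 5.61 (Itpr2). The filter on low counts used the libraries of cluster 11 alone, so this direction is not read as a result.

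Cdh2, which encodes N-cadherin, had means of 217 to 351 CPM in all 8 strains in cluster 11. In oligodendrocytes it stood at 390 to 518 CPM in the 4 mice of NOD/ShiLtJ, with means of 449.7 CPM in C57BL/6 and 354 CPM in WSB/EiJ, and at 46.4, 48.5 and 54.1 CPM in CAST/EiJ, with 52.0 CPM in PWK/PhJ and 58.6 CPM in NZO/HlLtJ (adjusted p = 2.50e-09). The strains that were low in oligodendrocytes kept the gene in cluster 11, where CAST/EiJ had a mean of 291 CPM. March1, a ubiquitin ligase, had means of 458 to 787 CPM in cluster 11. In CAST/EiJ it stood at 680, 743 and 937 CPM in cluster 11 and at 38.7, 42.9 and 85.7 CPM in oligodendrocytes. In C57BL/6 it stood at 233, 397, 564 and 637 CPM and at 655, 766, 798 and 831 CPM (adjusted p = 2.07e-09). The clusters thus had the opposite order in these strains. Within cluster 11 the gene stood at 1499 CPM in sub-cluster 1, and at 20.9 and 18.2 CPM in sub-clusters 2 and 4, and sub-cluster 2 held 19 of the 53 nuclei of C57BL/6 and 10 of the 50 of CAST/EiJ.

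Pcdh15 differed most in PWK/PhJ, at 1586, 1620 and 2099 CPM in cluster 11, the highest mean, and at 27, 41.5 and 59.0 CPM in oligodendrocytes, the lowest mean (adjusted p = 1.66e-06). WSB/EiJ was lowest in cluster 11, at 464, 587 and 830 CPM. Gria4, the AMPA receptor subunit, stood at 10.4, 15.1 and 17.7 CPM in oligodendrocytes of PWK/PhJ and had means of 146 to 332 CPM in those of other strains, while cluster 11 had means of 485 to 737 CPM with PWK/PhJ at 432, 444 and 580 CPM (adjusted p = 1.92e-06). Dscam, an adhesion molecule, was highest in oligodendrocytes of PWK/PhJ, at 226, 248 and 255 CPM against means of 23.7 to 113 CPM, and had means of 1431 to 1896 CPM in cluster 11 (adjusted p = 1.92e-06).

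Cntn3, a contactin, was nearly absent from oligodendrocytes of CAST/EiJ (0, 3.23 and 5.80 CPM), with means of 2.29 CPM in NOD/ShiLtJ and 322 CPM in A/J. In cluster 11 CAST/EiJ held it at 59.1, 98.6 and 193 CPM (adjusted p = 4.39e-08). Dpyd, which degrades pyrimidines, had means of 3.34 CPM in CAST/EiJ and 1.97 CPM in PWK/PhJ in oligodendrocytes, and of 207 and 252 CPM in cluster 11 (adjusted p = 2.66e-06). Pde4d, a phosphodiesterase of cyclic AMP, ran from 195 CPM in C57BL/6 to 1682 CPM in PWK/PhJ in oligodendrocytes and from 937 to 1687 CPM in cluster 11 (adjusted p = 6.65e-07). Fhit was highest in NZO/HlLtJ and WSB/EiJ in oligodendrocytes, at 317 and 296 CPM, and lowest in CAST/EiJ in cluster 11, at 104 CPM (adjusted p = 1.92e-06).

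**Figure D5:**
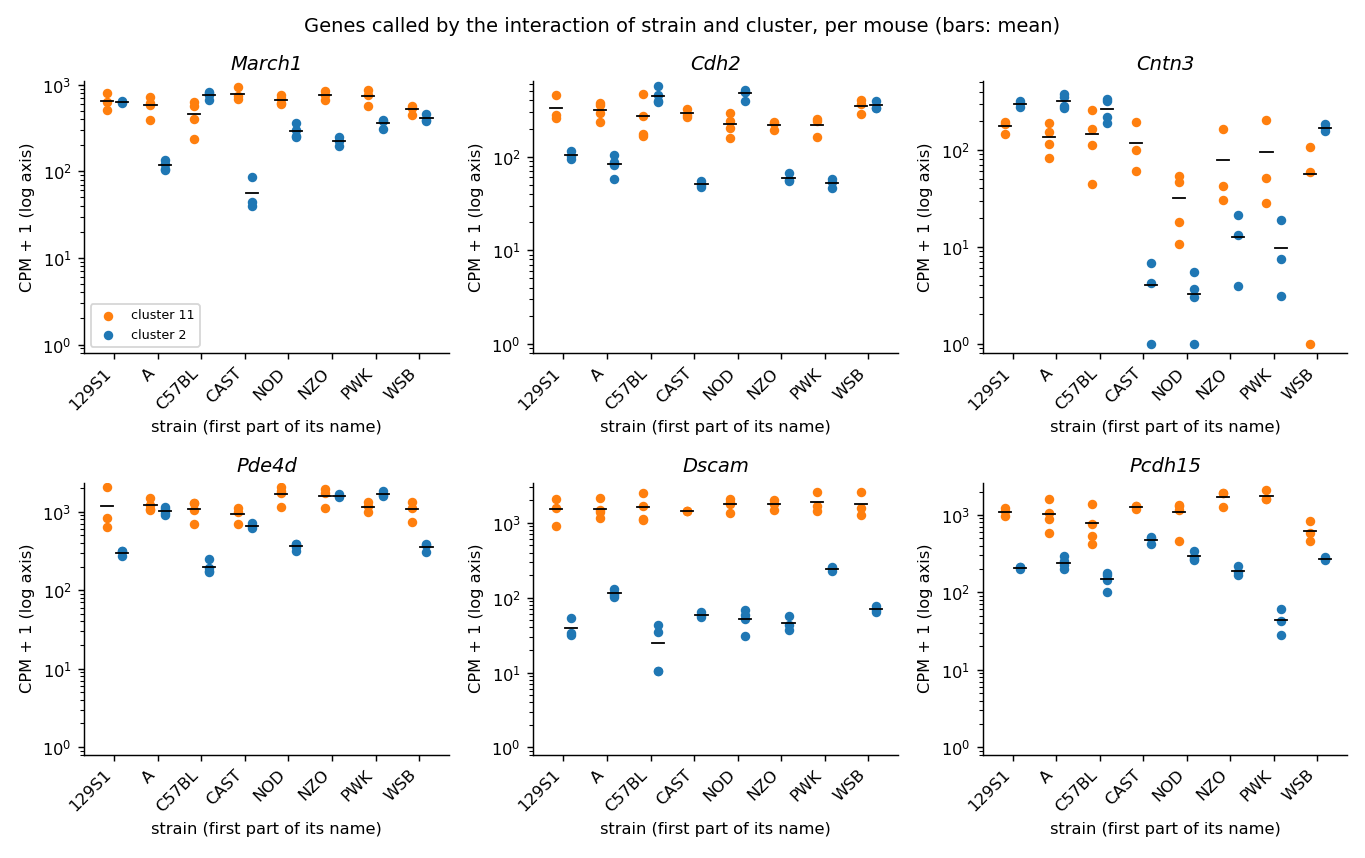
Level of March1, Cdh2, Cntn3, Pde4d, Dscam and Pcdh15 in each mouse by strain, as CPM plus 1 on a log axis, in cluster 11 and cluster 2. Cdh2 lies between 159 and 469 CPM in all mice of cluster 11 and between 45.7 and 567 CPM in cluster 2.

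By list, the interaction called 3 of 17 precursor markers (Pcdh15, Matn4 and Dscam), 2 of 14 committed and newly formed stage genes (Itpr2 and Tmem163), 6 of 35 synaptic receptors and channels, 9 of 37 adhesion genes and 2 of 20 receptors (Dcc and Robo1). It called 1 of 15 mature genes (Ptgds), 0 of 15 transcription factors and 0 of 11 projection neuron genes. These counts stand beside 4.81% of all genes tested.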

How the data were processed

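Nuclear RNA of 4 pooled batches was counted per gene and barcode. Per the submitters' processing notes, bcl2fastq 2.20.0.422 and Cell Ranger ARC 2.0.0 were used, with builds mm10 and GRCm38. The deposited matrices hold raw counts of UMIs, with no normalization. The authors assigned strains with Demuxlet from RNA and open chromatin, kept nuclei with over 200 and under 7500 genes and under 15% mitochondrial counts, removed DoubletFinder calls, removed further nuclei by relevance and annotated clusters, per the labels and the deposited table. That table and the open chromatin indexes hold categories and positions (unit other). Calls and cluster names were used unchanged, and no further doublet caller was run. Per the labels' protocols the chip was loaded above the usual number of nuclei.

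The members of the cluster, the gene lists and the tests were chosen with earlier results of these data known. Counts of each mouse were summed per cluster, and libraries of under 10 nuclei were left out, which left 27 of 32 mice: 3 each of 129S1/SvImJ, CAST/EiJ, NZO/HlLtJ, PWK/PhJ and WSB/EiJ and 4 of each other strain. Genes were filtered with filterByExpr, scaled by TMM and tested in a robust quasi-likelihood fit with strain and batch (edgeR 4.0.16, R 4.3.3), and for the interaction with strain by cluster and the mouse as block. The batch pairs mice by design, since each batch pooled 1 mouse of every strain. Adjusted p-values are Benjamini-Hochberg over all genes of a fit, called under 0.05. Genes named are the 25 of largest F among those the strain term called, the 10 of the interaction by the same rule, listed genes and those of largest level ratio. Level ratios added 1 CPM. Shares (log2) and depth were compared by permutation of strain labels within batch, adjusted over 3 measures. Sub-clusters came from scanpy 1.11.5 (2000 variable genes, 20 components, 15 neighbors, Leiden resolution 0.5). Fits were tested on simulated data. Alternatives included RLE scaling, other filters, DESeq2 1.42.0 and leaving out each batch. Upstream sequences came from RefSeq tables, the first entry of a listed gene being used, and all entries for the shares over all stretches. The matrix of accessible regions by nuclei was not analysed here.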

Additional observations from a re-analysis of the deposited data

Results flagged for a closer look

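Among 110 groups of 4 mice examined for a mouse far from the others, 2 were set apart, where chance gives about 5%. In A/J, 1 mouse had 82.1% of its precursor barcodes called doublets, against 77.8% to 77.9% in the other 3. In NOD/ShiLtJ, 1 mouse had Hdac9 at 116 CPM in cluster 11, below the others.

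Strain differences in cluster 11 and in oligodendrocytes of the same mice were themselves different, by the interaction of strain and cluster in edgeR, for 10 genes named in the report. The adjusted p was 2.07e-09 for March1, 2.50e-09 for Cdh2, 4.39e-08 for Cntn3, 4.39e-08 for Itpr2, 6.65e-07 for Pde4d, 2.66e-06 for Dpyd, 1.66e-06 for Pcdh15 and 1.92e-06 for each of Gria4, Dscam and Fhit. The ratio of the highest to the lowest strain mean was larger in cluster 2 for each of these. Genes were filtered on the libraries of cluster 11 alone, so this direction is not read as a result.

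Outside the annotated nuclei, 1190 barcodes that the authors' pipeline called doublets carried at least 3 of the 7 precursor genes, more than the 281 kept in cluster 11. What they hold was not tested.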

How the results depend on the processing

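The strain term in cluster 11 called 26 genes with batch as a block and 25 without the replicate block, but 221 with no filter on low counts, 75 by DESeq2, 348 with the precursor barcodes called doublets, 356 with these in the same 27 mice and 65 without sub-cluster 3 in the same 27 mice (all 3 added after the data were seen) and 6 to 58 with 1 batch left out. Of the 25 named genes, 8, 8, 21 and 5 passed without batches 1 to 4, 25 by DESeq2, 21 without the replicate block and 16 of the 23 tested with at least 5 nuclei. The interaction called 101 genes, against 253 with no filter, 162 by DESeq2, 218 with no replicate block, 554 with the barcodes called doublets and 47 to 135 with 1 batch left out. For median UMIs the adjusted permutation p was 0.00267, and 0.816 with no replicate block, with a range of 0.00375 to 0.239 when 1 batch was left out. The planned share of cluster 11 gave a permutation p of 0.816. Another measure, the share of precursor barcodes kept or called doublets, passed (permutation p = 0.00735, adjusted 0.0110 in place of the planned share). Its unadjusted permutation p was 0.0192 to 0.0526 with 1 batch left out. The percent of precursor barcodes called doublets was 72.5, 83.2 and 84.1 with at least 2, 4 and 5 of the 7 genes, and 87.7 after thinning. Of 79 values of counts and tests under alternatives, 54 stayed within 1.5 times for counts of genes, on the same side of the threshold for tests or, for values with no test, within their 95% interval. A planned fit with at least 20 nuclei per mouse was not run because too few mice remained. The causes of these changes were not tested. With libraries of 20750 to 169474 counts, 2099 genes passed the filter, 3951 had at least 50 CPM on average and 18834 were tested with no filter.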
